A study of Mus musculus with 12 samples.

Results

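The 10 genes described here act on the Notch pathway, either by adding sugars to its receptors or through ubiquitination and endocytosis of its receptors and ligands. They were chosen by name, with earlier results of these data known. They are the fringes Lfng, Mfng and Rfng and the glycosyltransferases Pofut1 and Poglut1. The others are the ubiquitin ligases Mib1, Itch and Dtx2 and the endocytic adaptors Numb and Numbl. Each symbol matched 1 of the 53700 gene identifiers in the count table. Of these 10 genes, 9 passed the filter on low counts and Mfng did not.

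RNA was sequenced from 12 untreated cultures of intrahepatic cholangiocyte organoids, which are hollow spheres of bile duct cells grown in Matrigel domes. The study modelled Alagille syndrome, a disorder of bile duct formation usually caused by loss of 1 copy of JAG1 in people, with mice homozygous for a mutant Jag1 allele called Ndr. There were 3 Ndr mice (Jag1 Ndr/Ndr; mice 1219, 1220 and 1224) and 3 wild-type mice (WT, Jag1 +/+; mice 1221, 1223 and 1225). A hilar and a peripheral liver culture were made from every mouse, so the groups Ndr hilar, WT hilar, Ndr peripheral and WT peripheral held 3 cultures each. All RNA was taken at passage 5. The age and sex of the mice are not used here. Values of a group are given below in the order of the mouse numbers.

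Notch receptors are read out when a ligand on a neighbouring cell pulls on them and exposes a cleavage site, after which the released intracellular part enters the nucleus and works with RBPJ. Sugars on the epidermal growth factor-like repeats of the receptor tune which ligands it answers to, and endocytosis of the ligand in the sending cell provides the pull. In the liver, Jag1 signalling through Notch2 drives bile duct formation, and in mice the gene dosage of fringes and of Poglut1 has been reported to alter the bile duct phenotype of Jag1 heterozygotes.

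The libraries held 6708822 to 16030880 counts. All 12 genes of a cholangiocyte marker list were detected, with a summed level of 11709 to 21986 CPM (counts scaled to a common TMM-adjusted library total), whereas fibroblast and stellate markers summed to at most 1.79 CPM and endothelial markers to at most 0.618 CPM. Immune markers summed to 9.90 to 40.1 CPM and hepatocyte markers to 4.65 to 168 CPM. Cps1 and Asgr1 of the hepatocyte list, Dcn and Thy1 of the fibroblast list, Kdr and Clec4g of the endothelial list and Adgre1 and Clec4f of the immune list had 0 reads in all 12 libraries. In single cultures Apob reached 154, Ttr 52.0, Alb 40.9, Csf1r 37.0 and Cd68 10.7 CPM, named after seeing the values. Every Ndr culture had more Ttr than every WT culture of its region (log2 difference 3.13 in hilar, 2.33 in peripheral). This order held for 4.57% of genes in hilar and 5.41% in peripheral cultures, and Ttr did not pass the test used below. Of the 4 tested hepatocyte genes, 3 were higher and 1 lower in Ndr in each region. Proliferation markers summed to 302 to 504 CPM in Ndr hilar and 361 to 1956 CPM in WT hilar cultures, and to 808 to 1346 CPM in Ndr peripheral and 718 to 859 CPM in WT peripheral cultures. In hilar cultures all 10 proliferation genes were lower in Ndr than in WT (median log2 difference -1.77), and none of them passed the test used below. The sum of 1956 CPM came from WT mouse 1225. The median WT hilar sum was 525 CPM, and the lowest, 361 CPM, lay within the Ndr hilar range. In peripheral cultures all 10 were higher in Ndr (median log2 difference 0.37), and none passed there either. Mice 1224 (Ndr) and 1225 (WT) were the only pair of opposite genotype derived on the same day, so derivation date and genotype cannot be told apart in the other mice. The mutated gene Jag1 itself averaged 115 ± 12.5 CPM in Ndr and 129 ± 30.4 CPM in WT mice (SD, n = 3 each, both cultures of a mouse summed). The Ndr allele is a missense change, which a count of Jag1 reads does not test.

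The 4 promoters below are shown because the members differ in whether they carry the core letters bound by RBPJ, the DNA-binding partner of Notch. The choice does not follow the measured differences, none of which passed the test. Each window runs from 250 bases before to 50 bases after the gene start, in RefSeq's annotation of GRCm38.p6. They are Lfng at chr5:140607091-140607390 on the plus strand, Rfng at chr11:120784155-120784454 on the minus strand, Poglut1 at chr16:38550207-38550506 on the minus strand and Dtx2 at chr5:135994550-135994849 on the plus strand. Each is written 5′ to 3′ in the gene's direction, and capitals mark the motif TGGGAA or its reverse complement TTCCCA.
Lfng: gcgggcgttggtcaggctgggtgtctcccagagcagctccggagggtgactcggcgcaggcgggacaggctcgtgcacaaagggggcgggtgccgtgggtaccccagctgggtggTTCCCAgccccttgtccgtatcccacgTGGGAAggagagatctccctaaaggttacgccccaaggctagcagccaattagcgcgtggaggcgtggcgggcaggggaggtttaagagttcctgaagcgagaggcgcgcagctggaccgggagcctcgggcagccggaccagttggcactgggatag
Rfng: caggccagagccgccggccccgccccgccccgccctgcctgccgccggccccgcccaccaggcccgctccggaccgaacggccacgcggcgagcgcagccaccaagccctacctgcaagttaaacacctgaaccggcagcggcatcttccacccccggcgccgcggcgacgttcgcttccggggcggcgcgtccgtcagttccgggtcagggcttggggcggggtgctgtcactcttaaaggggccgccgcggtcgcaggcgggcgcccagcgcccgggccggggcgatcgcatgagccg
Poglut1: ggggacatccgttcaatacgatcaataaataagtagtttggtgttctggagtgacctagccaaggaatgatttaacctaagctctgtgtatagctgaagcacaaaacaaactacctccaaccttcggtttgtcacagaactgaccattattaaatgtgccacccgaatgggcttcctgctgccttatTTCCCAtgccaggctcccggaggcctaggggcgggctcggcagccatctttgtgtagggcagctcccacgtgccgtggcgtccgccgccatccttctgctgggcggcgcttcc
Dtx2: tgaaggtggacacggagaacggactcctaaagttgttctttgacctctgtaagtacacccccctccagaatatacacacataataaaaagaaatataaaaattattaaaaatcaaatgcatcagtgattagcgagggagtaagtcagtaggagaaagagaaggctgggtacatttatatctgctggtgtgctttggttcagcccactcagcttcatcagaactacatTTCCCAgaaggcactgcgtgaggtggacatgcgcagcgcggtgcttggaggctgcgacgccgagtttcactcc
The Lfng window held the motif at 108 bases before the start in the gene's direction, where it was part of the longer GTGGGAA, and at 135 bases before it in the reverse direction. Poglut1 held 1 reverse match at 63 bases and Dtx2 1 reverse match at 23 bases before the start. The windows of Rfng, Pofut1, Numb and Numbl held none. Over 32851 RefSeq mouse promoter windows of this length, 25.6% held TGGGAA on either strand and 6.38% held GTGGGAA, so a match is common and only describes the letters in the window. Windows were matched for 7 of the 10 genes.

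Across the 12 cultures the members spanned a wide range of abundance. Per kilobase of exon, which allows levels of different genes to be compared, Poglut1 was highest at a mean of 19.1 CPM per kb, followed by Mib1 at 14.5, Numb at 11.5, Itch at 11.3 and Lfng at 7.82 CPM per kb. Pofut1 averaged 4.79, Rfng 4.11, Dtx2 1.45 and Numbl 0.717 CPM per kb. Mfng averaged 0.0222 CPM per kb. The enzymes that start the O-fucose and O-glucose chains, 2 of the 3 fringes, a ligand-activating ligase and a Numb adaptor were thus all transcribed in these cultures. In bulk RNA, fewer expressing cells and less RNA per cell cannot be told apart.

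**Figure D1:**
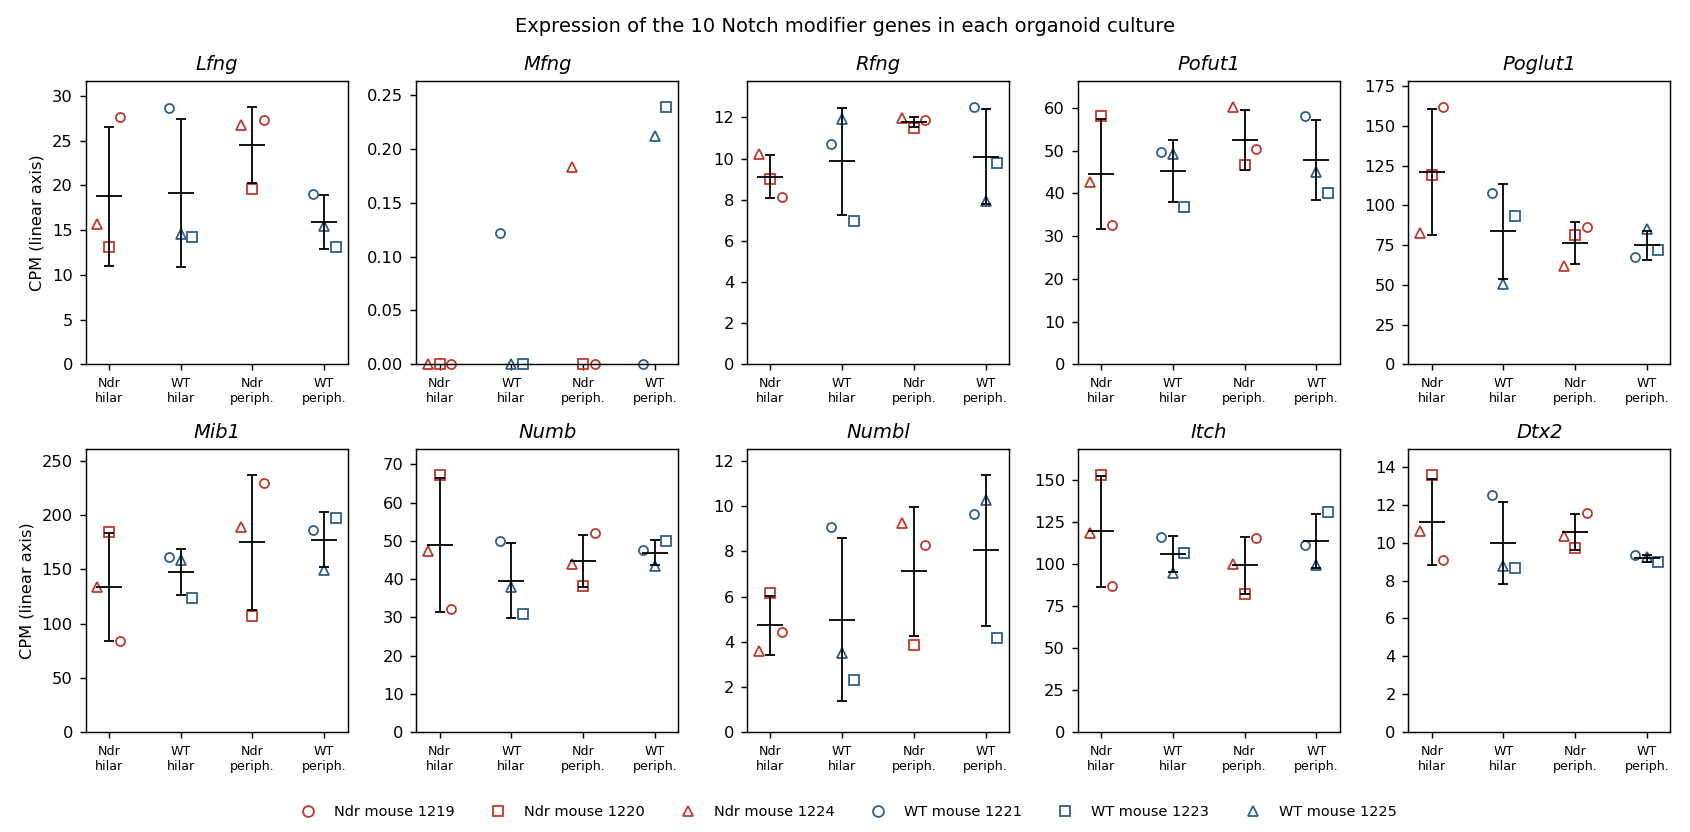
CPM of each gene (y axis, linear, scaled per panel from 0) in the 12 organoid cultures, by genotype and liver region. Symbols are single cultures, shaped by mouse; horizontal bars are group means with whiskers of 1 SD (n = 3), left out for Mfng, where 8 of 12 libraries held no read. The groups overlap in most panels; the 3 Ndr peripheral cultures lie above the 3 WT peripheral cultures for Lfng and Dtx2.

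The fringes extend the O-fucose on Notch with N-acetylglucosamine, and in cell assays Lfng and Mfng raise the response to Delta ligands and lower that to Jagged ligands. Lfng had 27.7, 13.1 and 15.7 CPM in Ndr hilar cultures, against 28.7, 14.2 and 14.6 CPM in WT hilar cultures. In each hilar group 1 culture, that of Ndr mouse 1219 and of WT mouse 1221, stood at about the same high level above the other cultures of its group. Lfng had 27.3, 19.6 and 26.7 CPM in Ndr peripheral cultures, against 19.1, 13.2 and 15.5 CPM in WT peripheral cultures. The lowest Ndr peripheral culture was just above the highest WT peripheral culture, so these groups did not overlap. The log2 difference, Ndr minus WT, was 0.62 (SE 0.351, 95% interval -0.15 to 1.39) in peripheral and -0.03 (SE 0.350, 95% interval -0.80 to 0.74) in hilar cultures. Neither passed edgeR's quasi-likelihood test with Benjamini-Hochberg adjustment over all 15014 genes (adjusted p = 0.99996 in peripheral and 0.995 in hilar cultures). The hilar value rested on single cultures, being 0.36 without the culture of WT mouse 1221 and -0.42 without that of Ndr mouse 1219. The difference between the genotype effects of the 2 regions was -0.65 (SE 0.495, 95% interval -1.74 to 0.43) and did not pass either (edgeR adjusted p = 0.994). It was -0.25 without the hilar culture of WT mouse 1221 and -1.04 without that of Ndr mouse 1219.

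Lfng also moved with library size. After the group means were removed, its log2 CPM correlated with the log2 library size at r = 0.89 over the 12 libraries of 6 mice, and 0.0599% of the genes tested reached that value. Numbl came next among the members at r = 0.70, which 1.14% of genes reached. The Ndr peripheral libraries held 10130491 to 11494954 counts and the WT peripheral libraries 8405443 to 12356642 counts, so the depths of these groups overlapped. The hilar cultures of Ndr mouse 1219 and WT mouse 1221, highest for Lfng in their groups, also had the largest libraries there (10462220 and 16030880 counts). The other hilar libraries held 6708822 to 7838852 counts. The part of depth in the Lfng values and differences was not tested.

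Mfng was at the detection limit. It had 2 reads among 57093225 in Ndr cultures and 6 among 60862044 in WT cultures. Each library with any Mfng read held 2, and 3 counts, the level under which a count of 0 cannot be told from low expression, stood for 0.183 to 0.463 CPM depending on the library. No fold is given, because both genotypes were under that level.

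Rfng, the fringe that in cell assays raises the response to Delta and Jagged ligands alike, was low and even. It had 8.12, 9.01 and 10.2 CPM in Ndr hilar cultures, against 10.7, 6.95 and 11.9 CPM in WT hilar cultures. It had 11.9, 11.5 and 11.99 CPM in Ndr peripheral cultures, against 12.5, 9.81 and 7.95 CPM in WT peripheral cultures. The Ndr peripheral cultures were the closest together of the 4 groups for Rfng, and all were above the Ndr hilar cultures. Within mice, hilar Rfng was lower than peripheral Rfng in 5 of 6. In the fit without the mouse as a block the log2 difference was -0.20 (SE 0.190, edgeR adjusted p = 0.931). That difference ran from -0.28 to -0.11 with 1 culture left out. With the mouse as a block it was -0.21 (SE 0.223, edgeR adjusted p = 0.99997).

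Because the fringes share a substrate, the share of Lfng among all reads of the 3 fringes was also followed. It averaged 67.1 ± 5.92% in Ndr and 63.2 ± 4.27% in WT mice (SD, n = 3 each), a difference of 3.93 percentage points with a two-sided exact permutation p of 0.5, where 0.1 is the smallest value that 3 against 3 mice allow. The difference ran from 0.749 points without Ndr mouse 1219 to 6.60 points without Ndr mouse 1220. The share ranged from 55.0% to 77.3% over the libraries, with totals of 137 to 648 fringe reads and 95% Wilson intervals of 48.2 to 61.5% for the lowest and 72.8 to 81.3% for the highest. It was higher in the hilar than in the peripheral culture in 3 of 6 mice (exact sign-flip p = 0.781). Intervals of shares cover counting error only.

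Pofut1 adds the O-fucose on which the fringes act, and Poglut1 adds O-glucose to the same repeats. Poglut1 had 162, 119 and 82.9 CPM in Ndr hilar cultures, against 108, 93.5 and 50.4 CPM in WT hilar cultures. It had 86.2, 81.6 and 61.7 CPM in Ndr peripheral cultures, against 67.6, 72.0 and 84.9 CPM in WT peripheral cultures. The hilar means were 121 ± 39.7 CPM in Ndr and 83.9 ± 29.9 CPM in WT (SD, n = 3 each), but the lowest Ndr culture lay below the highest 2 WT cultures. The log2 difference in hilar cultures was 0.53 (SE 0.308, 95% interval -0.14 to 1.21, edgeR adjusted p = 0.779), against 0.03 (SE 0.308, 95% interval -0.64 to 0.71, edgeR adjusted p = 0.99996) in peripheral cultures. With the hilar culture of WT mouse 1225 left out it was 0.26, and with that of Ndr mouse 1219 left out it was also 0.26. That culture of WT mouse 1225 had the lowest Poglut1 level and the highest proliferation marker sum (1956 CPM), and over the 12 libraries Poglut1 correlated with the mean log2 level of the proliferation markers at r = -0.61, and at r = -0.35 after group means were removed. The part of proliferation in the difference was not tested.

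Poglut1 was also followed between regions. Its level was higher in the hilar than in the peripheral culture in 5 of 6 mice, with means of 103 ± 37.5 CPM in hilar and 75.7 ± 10.04 CPM in peripheral cultures (SD, n = 6 each). The log2 difference was 0.42 (SE 0.218, 95% interval -0.06 to 0.89) and did not pass the test (edgeR adjusted p = 0.83). The exception was WT mouse 1225, whose hilar culture had 50.4 CPM and peripheral culture 84.9 CPM. How many genes of any kind had 1 direction in 5 of 6 mice was not counted, so this order does not single out Poglut1.

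Pofut1 had 32.6, 58.1 and 42.6 CPM in Ndr hilar cultures, against 49.6, 36.8 and 49.2 CPM in WT hilar cultures. It had 50.4, 46.7 and 60.3 CPM in Ndr peripheral cultures, against 58.2, 40.2 and 45.04 CPM in WT peripheral cultures. The groups overlapped in both regions. Over mouse totals its log2 difference, Ndr minus WT, was 0.04 (SE 0.173, 95% interval -0.37 to 0.45, edgeR adjusted p = 0.985).

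Mib1 ubiquitinates Notch ligands, Jag1 among them, in the signal-sending cell and so starts their endocytosis. It was the most abundant member in CPM and had 83.9, 184 and 134 CPM in Ndr hilar cultures, against 161, 123 and 158 CPM in WT hilar cultures. It had 229, 107 and 189 CPM in Ndr peripheral cultures, against 186, 197 and 149 CPM in WT peripheral cultures. The Ndr cultures spanned both the lowest and the highest value, with the hilar culture of mouse 1219 lowest and its peripheral culture highest. Summing the cultures of a mouse brought the genotypes close, at 151 ± 15.2 CPM in Ndr and 165 ± 9.13 CPM in WT mice (SD, n = 3 each; log2 difference -0.12, SE 0.129, 95% interval -0.43 to 0.18, edgeR adjusted p = 0.92). That difference ran from -0.20 to -0.041 with 1 mouse left out.

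Itch and Dtx2 are ubiquitin ligases that act on the receptor: Itch ubiquitinates Notch and promotes its degradation, and the Deltex family regulates its endocytic trafficking. Itch had 87.0, 153 and 119 CPM in Ndr hilar cultures, against 116, 106 and 94.8 CPM in WT hilar cultures. It had 116, 82.0 and 100 CPM in Ndr peripheral cultures, against 111, 131 and 99.4 CPM in WT peripheral cultures. The groups overlapped, and the mouse totals of 106 ± 5.70 CPM in Ndr and 112 ± 11.4 CPM in WT gave a log2 difference of -0.08 (SE 0.125, 95% interval -0.37 to 0.22, edgeR adjusted p = 0.94). It ran from -0.17 to -0.020 with 1 mouse left out.

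Dtx2 had 9.09, 13.6 and 10.6 CPM in Ndr hilar cultures, against 12.5, 8.65 and 8.79 CPM in WT hilar cultures. It had 11.6, 9.71 and 10.3 CPM in Ndr peripheral cultures, against 9.33, 8.97 and 9.22 CPM in WT peripheral cultures. All 3 Ndr peripheral cultures were above all 3 WT peripheral cultures, by a small margin: the means were 10.5 ± 0.945 CPM in Ndr and 9.17 ± 0.183 CPM in WT (SD, n = 3 each). The log2 difference was 0.20 (SE 0.247, 95% interval -0.34 to 0.74, edgeR adjusted p = 0.99996), and 0.13 without the culture of Ndr mouse 1219. Without a test, 2 of the 9 members, Lfng and Dtx2, had every Ndr peripheral culture above every WT peripheral culture, as did 5.41% of all genes tested. None of the 9 had the reverse order, which 3.61% of genes had. In hilar cultures no member had groups that did not overlap, against 4.57% of genes with Ndr higher and 4.18% with Ndr lower. In mouse totals no member did, against 5.49% of genes with Ndr higher and 5.78% with Ndr lower.

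Numb and its paralog Numbl are adaptors that bind Notch and the endocytic machinery and restrain signalling in the receiving cell. Numb had 32.3, 67.3 and 47.4 CPM in Ndr hilar cultures, against 50.0, 30.7 and 37.9 CPM in WT hilar cultures. It had 52.0, 38.2 and 44.0 CPM in Ndr peripheral cultures, against 47.5, 49.9 and 43.5 CPM in WT peripheral cultures. The groups overlapped in both regions, and the mouse totals were 45.3 ± 4.11 CPM in Ndr and 44.2 ± 4.59 CPM in WT (SD, n = 3 each; log2 difference 0.04, SE 0.137, edgeR adjusted p = 0.98).

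Numbl was the most variable of the 9 tested members, with an SD of log2 CPM of 0.66 and a highest level 4.44 times its lowest. It had 4.45, 6.14 and 3.57 CPM in Ndr hilar cultures, against 9.09, 2.32 and 3.52 CPM in WT hilar cultures. It had 8.26, 3.87 and 9.24 CPM in Ndr peripheral cultures, against 9.66, 4.19 and 10.3 CPM in WT peripheral cultures. Genotypes overlapped in both regions, while hilar Numbl was lower than peripheral Numbl in 5 of 6 mice, with Ndr mouse 1220 the exception. The region difference, hilar minus peripheral, was -0.63 on the log2 scale (SE 0.387, 95% interval -1.48 to 0.22) and did not pass the test (edgeR adjusted p = 0.868). It was -1.002 without the hilar culture of WT mouse 1221, whose Numbl was the highest of the hilar cultures. The tested genes whose log2 CPM followed Numbl most closely over the 12 libraries were Atg7, an autophagy enzyme, at r = 0.86, Rnf157, a RING finger gene, at r = 0.86, and Map1s, a microtubule-associated protein gene, at r = 0.85.

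The balance between the paralogs had 1 direction between regions in every mouse. Numb made up 90.3 ± 3.34% of the Numb and Numbl reads in hilar and 86.0 ± 4.66% in peripheral cultures (SD, n = 6 each). Its share was higher in the hilar culture of 6 of 6 mice. How many other gene pairs had 1 direction in every mouse was not counted, so this order does not single out the pair. In Ndr mice the shares were 87.9% in hilar and 86.3% in peripheral culture of mouse 1219, 91.6% and 90.8% in those of mouse 1220, and 93.0% and 82.6% in those of mouse 1224. In WT mice they were 84.6% in hilar and 83.1% in peripheral culture of mouse 1221, 93.0% and 92.3% in those of mouse 1223, and 91.5% and 80.9% in those of mouse 1225. The size of the difference was uneven: it was large in mice 1224 and 1225, whose 95% Wilson intervals of the 2 cultures did not overlap, and small in the other 4, whose intervals did. Mice 1224 and 1225 were also the 2 derived on 21 June 2021, and their hilar cultures held 28 Numbl reads each. The parts of derivation date and library size in the share were not tested. The mean difference was 4.28 percentage points, with a two-sided exact sign-flip p of 0.031, the smallest that 6 pairs allow. Adjusted over the 4 tests of shares it was 0.125, so the difference did not pass. The genotypes had 88.3 ± 2.53% in Ndr and 87.2 ± 4.63% in WT mice (SD, n = 3 each; exact permutation p = 0.6).

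**Figure D2:**
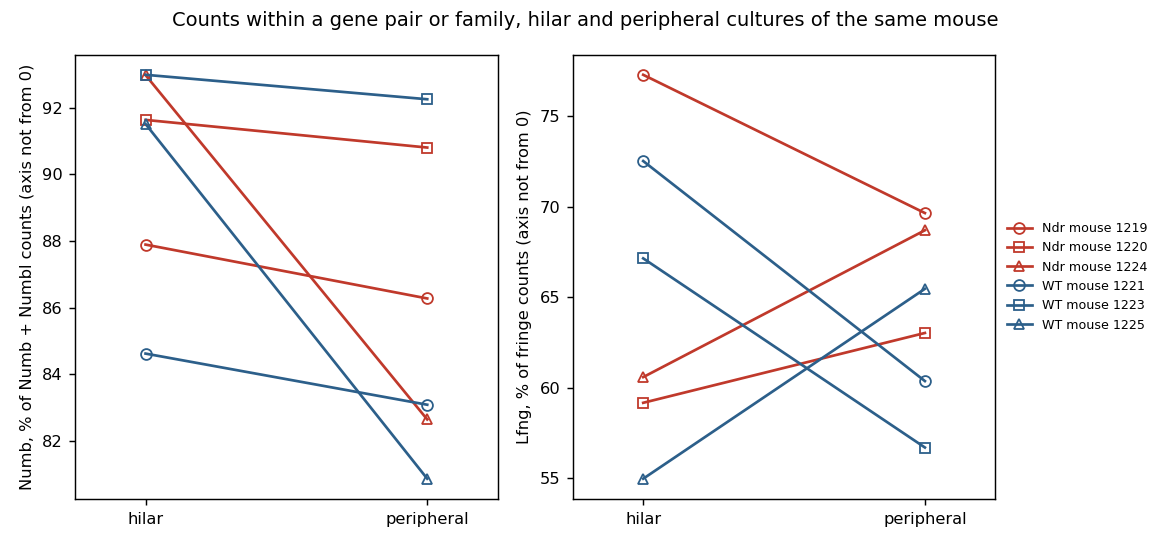
Share of Numb among Numb and Numbl reads (left) and of Lfng among reads of the 3 fringes (right), in percent, in the hilar and peripheral culture of each mouse. Lines join the cultures of 1 mouse, the y axes do not start at 0, and no error is drawn. The Numb share was higher in the hilar culture of 6 of 6 mice, with the steepest lines in mice 1224 and 1225. The Lfng share was higher there in 3 of 6. How many other gene pairs had 1 direction in every mouse was not counted.

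No member was called by edgeR or DESeq2 on the raw counts in any comparison, and few genes of any kind were. With edgeR at an adjusted p under 0.05, 0 of 9 members were called in the hilar genotype comparison, where 0% of 15014 genes were called. At an unadjusted p under 0.05, 0 of 9 members passed there, against 6.54% of genes, and DESeq2 called 0 of 9 members, against 0.281% of genes. For the genotype effect in peripheral cultures the members called were likewise 0, with 0% of genes called by edgeR, 2.92% at an unadjusted p and 0.0401% by DESeq2. For the region effect they were 0, with 0% of genes called by edgeR, 6.07% at an unadjusted p and 0.02% by DESeq2. For the difference of the genotype effects between regions they were 0, with 0% by edgeR, 3% at an unadjusted p and 0.0267% by DESeq2. For mouse totals they were 0, with 0% by edgeR, 5.42% at an unadjusted p and 0.735% by DESeq2.

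The median log2 difference over the 9 members was -0.03 in hilar and 0.03 in peripheral cultures, against -0.00 and 0.03 over all genes tested, and 0.04 against -0.00 in mouse totals. Between regions it was -0.06, against 0.02 over all genes. No member had 6 hilar values that lay all above or all below the 6 peripheral values, as 0.0533% of genes had with hilar higher and 0.0599% with hilar lower. No member had 1 sign in 6 of 6 mice between regions, which 1.12% of genes had with hilar higher and 1.37% with hilar lower. Rfng, Poglut1 and Numbl had 1 sign in 5 of 6 mice. The share of all genes with that order was not counted, so it does not set these members apart. The intervals set how large a change could have been missed: in mouse totals those of Mib1, Numb and Itch lay between -0.43 and 0.36 on the log2 scale, while that of Numbl ran from -1.10 to 0.74.

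**Figure D3:**
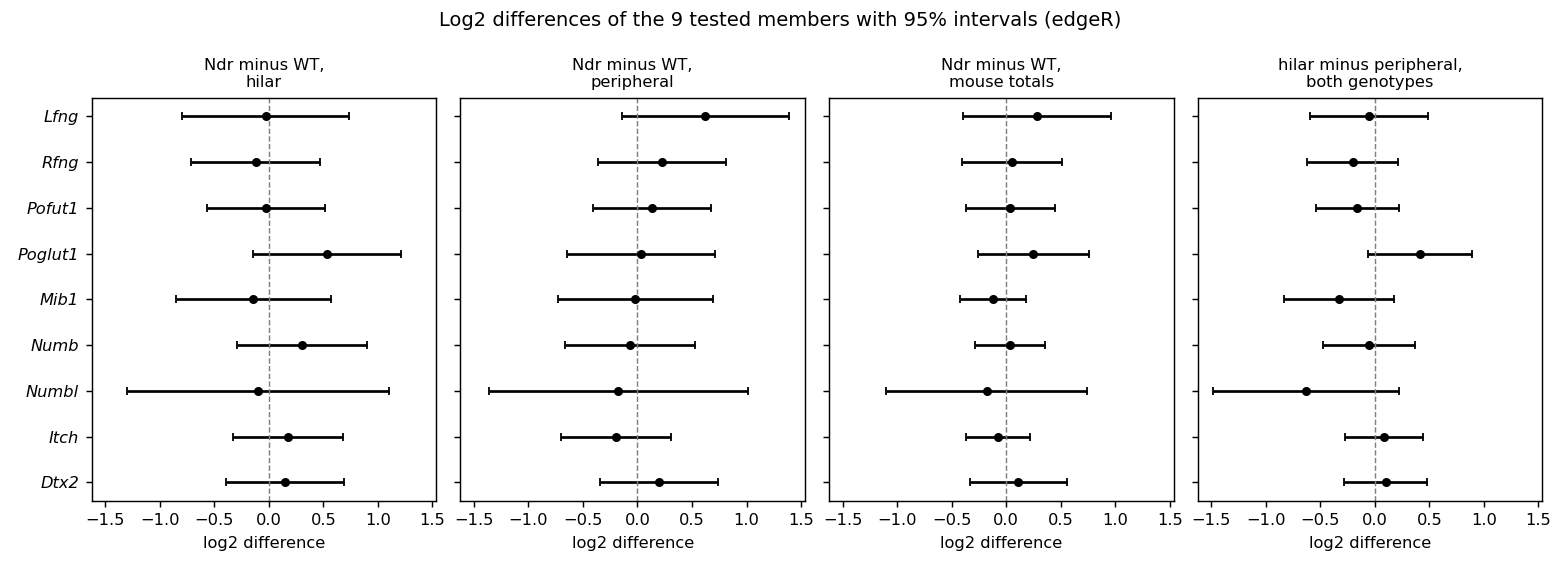
Log2 differences of the 9 tested genes (x axis) in 4 comparisons from edgeR, Ndr minus WT in hilar cultures, in peripheral cultures and in mouse totals, and hilar minus peripheral over both genotypes. Points are estimates and bars are 95% intervals. All 36 intervals include 0; the largest estimates are Lfng in peripheral cultures (0.62), Poglut1 in hilar cultures (0.53) and Numbl between regions (-0.63).

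The other genes of the pathway, listed by role, gave no call either. None of the 12 other O-glycan genes, the 26 other ubiquitin and endocytic genes, the 3 tested of 5 ligand genes, the 4 receptors, the 9 cleavage genes, the 8 nuclear genes or the 7 tested of 10 target genes passed edgeR's adjusted test in any of the 5 comparisons. Among O-glycan genes the most abundant were B4galt1, a galactosyltransferase, at 157 ± 96.0 CPM in Ndr and 168 ± 39.6 CPM in WT mice, and Ogt, the intracellular O-GlcNAc transferase, at 127 ± 23.7 CPM in Ndr and 112 ± 24.0 CPM in WT mice (SD, n = 3 each). Among ubiquitin and endocytic genes Nedd4, a ligase of the same HECT family as Itch, had 1688 ± 246 CPM in Ndr and 2180 ± 376 CPM in WT mice, and Neurl3 had 164 ± 38.4 CPM in Ndr and 197 ± 36.4 CPM in WT mice. At an unadjusted p under 0.05 in mouse totals, which 5.42% of genes reached, 2 O-glycan genes (Gxylt1 and Slc35c1), 2 ubiquitin and endocytic genes (Dtx4 and Cbl) and the receptor Notch1 were past that level with lower values in Ndr, and these were named after their values were seen.

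On the receptor and ligand side, Notch2 had 76.8 ± 3.47 CPM in Ndr and 85.4 ± 29.6 CPM in WT mice, and Notch1 had 13.4 ± 2.78 CPM in Ndr and 21.7 ± 4.14 CPM in WT mice. The Notch1 log2 difference in mouse totals was -0.69 (SE 0.223, edgeR adjusted p = 0.869). Jag2 had 50.1 ± 2.05 CPM in Ndr and 40.5 ± 14.1 CPM in WT mice, with opposite directions by region: its means were 24.8 CPM in Ndr and 35.6 CPM in WT hilar cultures, and 72.6 CPM in Ndr and 45.2 CPM in WT peripheral cultures. The Jag2 difference between these genotype effects was -1.20 on the log2 scale (SE 0.447, edgeR adjusted p = 0.994). The Jag1 difference in mouse totals was -0.17 on the log2 scale (SE 0.198, edgeR adjusted p = 0.926). Of the cleavage enzymes, Adam10 had 266 ± 58.2 CPM in Ndr and 265 ± 16.4 CPM in WT mice, and Furin 211 ± 33.1 CPM in Ndr and 219 ± 51.9 CPM in WT mice. In the nucleus, Rbpj had 71.9 ± 19.3 CPM in Ndr and 90.5 ± 10.01 CPM in WT mice, and the coactivator Ep300 had 111 ± 12.2 CPM in Ndr and 127 ± 12.3 CPM in WT mice. Of the target genes, Sox9, a transcription factor of bile duct cells, had 145 ± 16.2 CPM in Ndr and 173 ± 35.8 CPM in WT mice, and Hes1 had 106 ± 12.5 CPM in Ndr and 105 ± 19.4 CPM in WT mice (SD, n = 3 each throughout). Nrarp, another target gene, averaged 1.75 CPM in Ndr and 5.05 CPM in WT hilar cultures, and 5.94 and 5.64 CPM in peripheral cultures. Its hilar log2 difference was -1.53 (SE 0.436, edgeR adjusted p = 0.75). Every Ndr hilar value was below every WT hilar value, as for 4.18% of genes. In hilar cultures 5 of the 7 tested target genes were higher in Ndr and 2 were lower. Nrarp was named after its values were seen.

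Some members varied together between cultures of the same group. After group means were removed, log2 CPM of Numb and Dtx2 correlated at r = 0.92, Mib1 and Itch at 0.88, Mib1 and Numb at 0.87, and Numb and Itch at 0.86 (Pearson, 12 libraries from 6 mice). Itch and Dtx2 were at r = 0.76 and Mib1 and Dtx2 at 0.70. These 4 genes were picked out after their values were seen. Of all 112702591 pairs of tested genes, 0.376% had an r at or above that of Numb and Dtx2, 1.01% that of Mib1 and Itch, and 7.004% that of Mib1 and Dtx2. The hilar culture of Ndr mouse 1220 had the highest Itch, Numb and Dtx2 of the 12, and the hilar culture of Ndr mouse 1219 had the lowest Mib1.

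The same cultures were high or low for long genes in general. The median log2 deviation of the 3748 genes with at least 6.25 kb of exon correlated with Numb at r = 0.97, with Mib1 at 0.95, with Itch at 0.92 and with Dtx2 at 0.87 over the same 12 libraries. Mib1, Itch and Dtx2 are of that length themselves. Numb, with 3.917 kb of exon, is not, and Numbl, with 8.673 kb, had r = 0.49 with the same median. The share of all genes that reached these values was not counted. The part of this shift in the correlations among the 4 genes was not tested. Notch2 moved the same way, at r = 0.95 with Mib1, 0.91 with Numb and with Itch and 0.83 with Dtx2, values that 1.47%, 4.48%, 4.62% and 10.4% of genes reached. Jag1 correlated at r = 0.82 with Itch, 0.79 with Dtx2, 0.77 with Numb and 0.61 with Mib1, values that 3.32%, 4.48%, 6.27% and 17.9% of genes reached.

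The glycosylation genes were not alike in this. Pofut1 went with the 4 genes, at r = 0.75 with Numb, 0.69 with Mib1, 0.67 with Dtx2, 0.52 with Itch and 0.69 with the median of long genes. Poglut1 and Rfng correlated at r = -0.57, Rfng and Pofut1 at 0.60, and Lfng and Numbl at 0.62. Lfng was near 0 or below it with Mib1 (-0.13), Numb (-0.10) and Itch (-0.25). Lfng had r = -0.09, Poglut1 r = -0.19 and Rfng r = 0.41 with the median of long genes. Pofut1, with 9.912 kb of exon, is one of the long genes, whereas Lfng (2.505 kb), Rfng (2.489 kb) and Poglut1 (4.658 kb) are not. The part of exon length in this contrast was not tested.

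**Figure D4:**
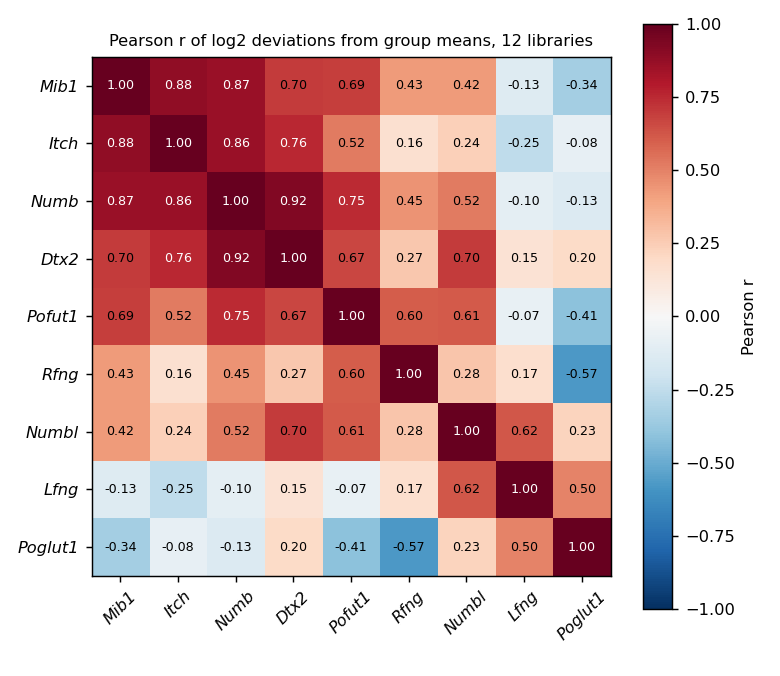
Pearson r between the log2 CPM of each pair of the 9 tested genes after group means were removed, over 12 libraries from 6 mice; red is positive and blue negative. Mib1, Itch, Numb and Dtx2 form a block with r of 0.70 to 0.92, and Lfng and Poglut1 lie outside it.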

How the data were processed

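The authors deposited raw read counts per gene for 12 libraries, and the submitters' processing notes name GRCm39, featureCounts and DESeq2 1.34.0. The aligner, annotation release and strand setting were not given in the sources used here. A second deposited table holds normalized values, a signal per gene and library. On its values, the signal table divided whole numbers by 1 factor per library (100% whole within 0.01), and these equalled the raw counts in 43.1% of cells and in 10.8% of the members' cells, so the raw counts were used throughout. No header or label records how these whole numbers were made, and they were not treated as read counts. The TruSeq RNA v2 kit does not mark strand. Numb shares 166 exon bases with the opposite-strand Gm46367, which had 0 counts, and Numbl 85 with Gm44641, which had 2.

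Models were fitted to the counts in edgeR 4.0.16 under R 4.3.3, after filterByExpr and TMM scaling, and tested with the robust quasi-likelihood F test. A fit of 12 libraries had 1 coefficient per group, 15014 genes and 8 residual degrees of freedom. A fit of 6 mouse totals, each the sum of both cultures, had 15401 genes and 4 residual degrees of freedom. Benjamini-Hochberg adjustment ran over all genes of a fit, with a threshold of 0.05. Intervals are 95% and use edgeR's total degrees of freedom per gene. CPM values use TMM-adjusted library totals, and correlations use log2(CPM + 0.5). Group comparisons of shares used two-sided exact permutation tests, with 4 tests in the family. The fits were tested on simulated counts before use. Hilar and peripheral cultures with the same number came from the same animal, so the replicate numbers pair them; same-mouse deviations correlated at -0.37 to 0.44. Exon lengths came from GENCODE M21 and promoters from RefSeq, both on GRCm38.

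The genes named were all 10 members, Jag1, up to 4 genes past the threshold of each other list or else its 2 most abundant genes, and the 3 genes most like the most variable member. Some further genes were named after their values were seen, as stated where they appear. Members and lists were chosen with earlier results of these data known. Alternatives were DESeq2 size factors, no filter on low counts, DESeq2 1.42.0, derivation date as a factor, the mouse as a block, each library or mouse left out, and, added after seeing the data, limma 3.58.1 (trend, robust) on log2(value + 1) of the signal table. That replaced a planned count test on whole reads recovered from the signal table.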

Additional observations from a re-analysis of the deposited data

How the results depend on the processing

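No member was called by edgeR or DESeq2 in any setting. Members kept their sign in all 5 comparisons under DESeq2 size factors, no filter and DESeq2, where the median of all genes moved by less than 0.1. Of 225 member values under other settings 15 changed sign, and of 378 with 1 library or mouse left out 52 did. None of these had a log2 difference above 0.18 in size in the fit reported. With the mouse as a replicate block, the pairing changed no call: the region difference was -0.68 for Numbl and 0.37 for Poglut1 (edgeR adjusted p = 0.99997).

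Counts of genes called, 0 in each comparison with edgeR, were with DESeq2 42 in hilar and 6 in peripheral cultures, 3 between regions, 4 for the interaction and 113 in mouse totals. Mouse totals gave 5 genes without the filter, 7 with derivation date as a factor, which rests on mice 1224 and 1225, and 0 to 4 with 1 mouse left out (4 without Ndr mouse 1219). Peripheral cultures gave 0 to 2 with 1 library left out (2 without that of Ndr mouse 1219). The cause was not tested. With limma on the signal table the counts were 1446 in hilar and 93 in peripheral cultures, 4 between regions, 2 for the interaction and 7215 in mouse totals, 1 member included: Itch at 0.16 (adjusted p = 0.0216), of opposite sign to the -0.08 from counts. For scale, the edgeR fit of mouse totals held 15401 genes. With 7215 genes called, a call was common, and 1 call among 9 members does not single out Itch. How the signal table was made is not recorded, and the cause was not tested.

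Signs also turned as follows. With derivation date, Lfng was 0.10 and Pofut1 0.013 in hilar cultures, Poglut1 -0.19, Mib1 0.11 and Numb 0.0078 in peripheral cultures, and Mib1 0.10 and Itch 0.14 in mouse totals. With limma on the signal table, Lfng was 0.067 and Numbl 0.28 in hilar cultures, Poglut1 -0.12 and Mib1 0.24 in peripheral cultures, Dtx2 0.018 for the interaction, and Mib1 0.082 and Numbl 0.13 in mouse totals. On the signal table the region difference of the Lfng share was -0.074 points and that of the Numb share 4.19 points (exact p = 0.0625).

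With 1 culture left out, hilar values ran from -0.42 to 0.36 for Lfng, -0.32 to 0.035 for Rfng, -0.27 to 0.15 for Pofut1, -0.44 to 0.10 for Mib1, -0.43 to 0.66 for Numbl, -0.046 to 0.36 for Itch and -0.031 to 0.32 for Dtx2. Peripheral values ran from -0.0035 to 0.30 for Pofut1, -0.065 to 0.16 for Poglut1, -0.26 to 0.22 for Mib1, -0.19 to 0.011 for Numb and -0.51 to 0.097 for Numbl. Region differences ran from -0.25 to 0.054 for Lfng, -0.19 to 0.054 for Numb and -0.014 to 0.17 for Itch. Interactions ran from -1.04 to -0.25 for Lfng, -0.38 to 0.020 for Pofut1, -0.40 to 0.12 for Mib1, -0.25 to 0.85 for Numbl and -0.21 to 0.13 for Dtx2. With 1 mouse left out, totals ran from -0.046 to 0.17 for Rfng, -0.081 to 0.15 for Pofut1, -0.017 to 0.13 for Numb and -0.50 to 0.15 for Numbl. The region difference ran from 3.01 to 4.99 points for the Numb share (exact p = 0.0625, the smallest 5 pairs allow) and -0.88 to 3.66 points for the Lfng share. The genotype difference ran from -0.43 to 3.82 points for the Numb share and 0.749 to 6.60 points for the Lfng share. With 3 mice per genotype, the 95% intervals of members reached from -1.37 to 1.39 within hilar or peripheral cultures, and Mfng was not measurable.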
